A study of Mus musculus with 8 samples.

Results

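The genes described here are 31 markers of endothelium, the cell layer that lines blood and lymph vessels, measured in the embryonic mouse pancreas with and without Sox9. They were found on the array by gene name, with Edg1, Agtrl1, Xlkd1 and Esam1 read as older names of S1pr1, Aplnr, Lyve1 and Esam (the last by its accession). All 31 were on the array, through 48 probes, and all 31 are among the 18506 genes tested. The probe used for each gene was well above background on all 8 arrays, and none was saturated.

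The study looked for pathways under the control of Sox9, which encodes a transcription factor of pancreatic progenitors, early in pancreas formation. Mutant embryos were Sox9fl/fl; Pdx1-Cre and their wild-type littermates were Sox9fl/fl, so that both groups carried the floxed allele, and genotype and presence of Cre cannot be told apart. The Sox9-flox line had a mixed FVB/N x C57Bl/6J background and the Pdx1-Cre line a C57Bl/6J background. Dorsal pancreatic epithelia were microdissected by hand at e12.5, RNA of 3 embryos was pooled for each sample, and 4 mutant and 4 wild-type samples were each read on 1 single-colour array. Pdx1 drives the Cre in early pancreatic epithelium, so the deletion was not aimed at the endothelial cells whose genes are described. The series text speaks of 3 biological replicates, n = 4 rests on the labels, and p-values measure the spread between these pools. In such bulk RNA, more or fewer cells of a type and more or less RNA per cell cannot be told apart.

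Endothelial cells form the inner wall of vessels and hold to each other through junction proteins such as Pecam1 and Esam. Receptors on their surface read growth, flow and guidance signals, and ETS factors such as Erg and Fli1 keep many of their genes active. Vessels run through the mesenchyme around the pancreatic bud, and endothelial cells are known to signal to pancreatic epithelium during its early growth.

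Promoter sequences are shown because the set holds 3 ETS factors (Erg, Fli1 and Ets1). The RefSeq table (GRCm38.p6) held promoters of 14 of the 31 genes, 22 promoters in all, each from 250 bases before to 50 bases after a start site. Searched on both strands were the ETS-type words CAGGAAG and CCGGAAG and the GATA-type word AGATAA. The word CAGGAAG stood in 8 of the 22 promoters (36.4%), which belonged to 7 genes, against 13.3% of all 32851 promoters in the table. CCGGAAG stood in 1 of the 22 (4.5%) against 8.9%, and AGATAA in 2 (9.1%) against 11.2%. No promoter of these genes held both ETS-type words. CAGGAAG stood in promoters of Cd34, Robo4, Egfl7, Rasip1, Erg, Apln and Emcn. Their mutant minus wild-type log2 differences, described below, were 0.069, 0.20, 0.24, 0.29, 0.44, 0.45 and 0.67 in that order. Clec14a, Lyl1, Tie1, Eng, Stab2, Tal1 and Ece1 lacked it, with differences of 0.76, 0.57, 0.57, 0.54, 0.52, 0.40 and 0.20. Whether the words go with the differences was not tested. The 250 bases before the start of 4 of the genes are printed 5′ to 3′ on the strand of the gene, for 2 genes with such a word and 2 without. Capitals mark the match, which in both cases is the reverse complement of the word, CAGGAAG in Emcn at position -174 and CCGGAAG in Lyl1 at position -182 from the start. Emcn lies at chr3:137340828-137341077 (plus strand), Lyl1 at chr8:84701207-84701456 (plus), Eng at chr2:32646345-32646594 (plus) and Tie1 at chr4:118489850-118490099 (minus).
Emcn: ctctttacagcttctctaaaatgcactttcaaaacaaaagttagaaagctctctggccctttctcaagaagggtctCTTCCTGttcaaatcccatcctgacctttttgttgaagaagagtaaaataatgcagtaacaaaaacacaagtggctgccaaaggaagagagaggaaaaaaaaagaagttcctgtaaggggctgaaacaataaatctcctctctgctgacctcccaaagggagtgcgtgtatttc
Lyl1: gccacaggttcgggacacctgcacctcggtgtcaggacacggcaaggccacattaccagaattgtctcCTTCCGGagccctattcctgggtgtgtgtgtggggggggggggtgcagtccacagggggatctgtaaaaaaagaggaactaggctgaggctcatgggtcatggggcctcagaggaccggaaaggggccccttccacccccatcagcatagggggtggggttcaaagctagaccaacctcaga
Eng: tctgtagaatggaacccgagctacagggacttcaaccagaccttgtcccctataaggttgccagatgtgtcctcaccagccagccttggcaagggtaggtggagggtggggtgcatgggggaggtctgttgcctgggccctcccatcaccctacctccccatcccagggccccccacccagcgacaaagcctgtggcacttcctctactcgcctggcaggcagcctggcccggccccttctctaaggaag
Tie1: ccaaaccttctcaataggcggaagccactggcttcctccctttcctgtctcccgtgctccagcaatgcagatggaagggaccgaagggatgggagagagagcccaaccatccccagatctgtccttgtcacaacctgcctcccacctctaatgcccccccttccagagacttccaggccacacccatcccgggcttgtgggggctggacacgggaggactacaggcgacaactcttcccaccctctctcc
A match is a run of letters and not a measured binding site, and the absence of a match in Eng and Tie1 covers this window and these words only.

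All 31 endothelial genes had a higher mean in the mutant than in the wild-type arrays, against 52.9% of all genes tested. The differences were small, from 0.0691 for Cd34 to 0.76 for Clec14a on the log2 scale, with a median of 0.43 (1.35-fold) beside 0.016 for all genes. Signals are log2 values relative to the 75th percentile of their array, so 0 is that percentile and levels of different genes are not set against each other. S1pr1, Emcn and Eng rose past an adjusted p of 0.05 (limma, Benjamini-Hochberg over 18506 genes) and the other 28 did not pass. These 3 are 9.68% of the 31 genes, against 1.55% of all genes tested that rose. None of the 31 fell, while 3.82% of all genes did (5.37% in either direction). At an unadjusted p under 0.05, 21 of the 31 were higher, against 8.88% of all genes.

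**Figure D1:**
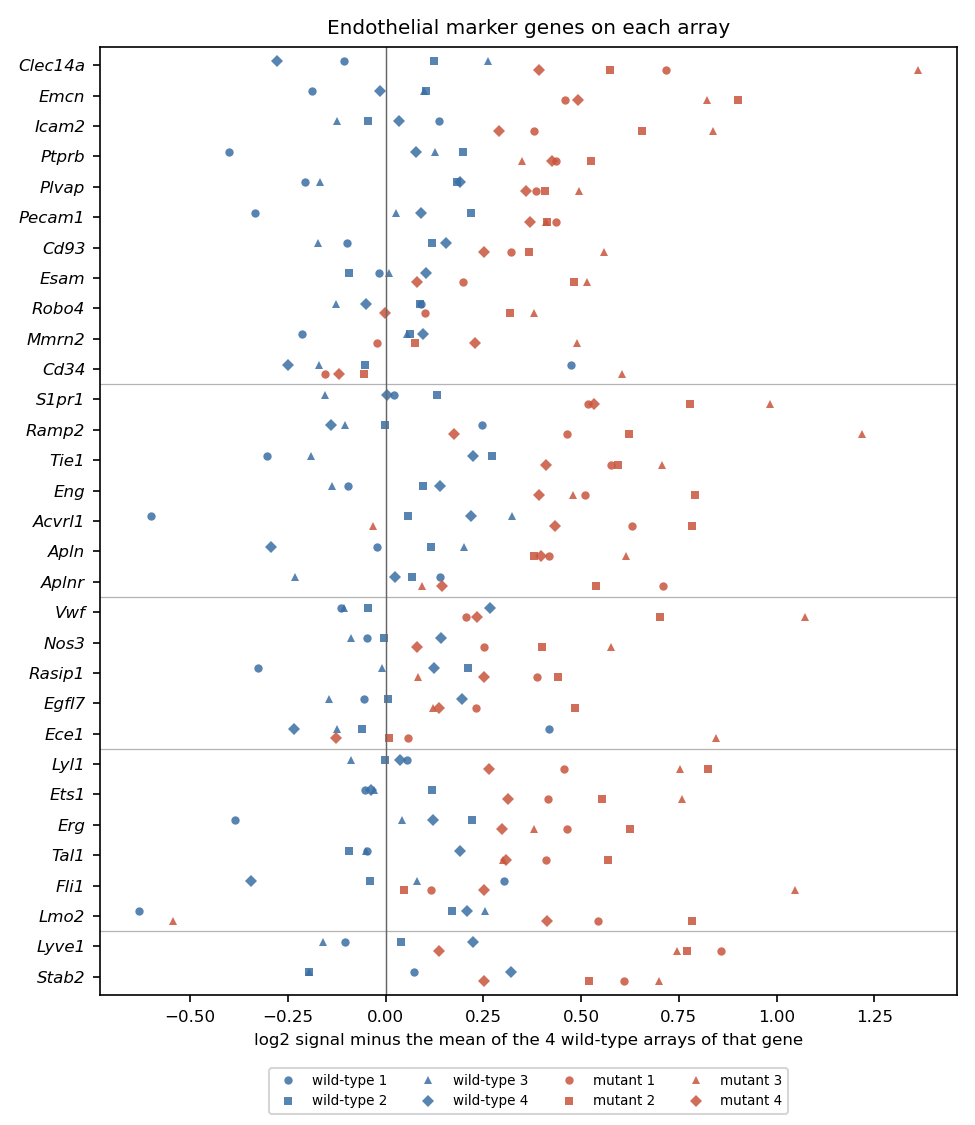
Each point is the log2 signal of 1 gene on 1 array minus that gene's mean over the 4 wild-type arrays. Wild-type arrays are blue and mutant arrays red, and lines part the groups of genes by role. For 15 of the 31 genes all red points lie to the right of all blue points, against 7.23% of all genes.

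The groups did not overlap for 15 of the 31 genes, every mutant array lying above every wild-type array, against 7.23% of all genes. For each of these 15 genes an exact two-sided permutation test, with 70 ways to split the arrays 4 and 4, gave p = 0.0286, the smallest it can give. Any gene without overlap gets this value, so the test restates the count and adds no evidence to it. The highest array of every gene was a mutant one and the lowest a wild-type one. The share of all genes for which this holds was not counted, so it is a description only. Mutant replicate 3 was highest for 18 genes, mutant replicate 2 for 10, mutant replicate 1 for 3 and mutant replicate 4 for none.

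Of the 7 receptors and ligands 2 rose and 5 did not pass, and their median log2 difference was 0.54. S1pr1, a receptor for the lipid sphingosine-1-phosphate that steadies vessels, was measured by a probe on chromosome 3, 115703106 to 115703165 (mm8). On wild-type replicates 1 to 4, in that order, its log2 signal read -2.17, -2.06, -2.35 and -2.19, and on mutant replicates 1 to 4 it read -1.68, -1.42, -1.21 and -1.66. The groups did not overlap, and mutant replicates 2 and 3 were the highest. The difference was 0.70 (SE 0.137, 1.63-fold, adjusted p = 0.0264 in limma, 0.0107 to 0.127 over the alternative settings). It was 0.85, 0.68 and 0.77 within slides 1, 2 and 3, whose few arrays are listed below.

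Eng is endoglin, a co-receptor that presents ligands of the BMP and TGF-beta family, and its probe lies on chromosome 2, 32503799 to 32503858 (mm8). The wild-type arrays read 0.61, 0.80, 0.57 and 0.84 and the mutant arrays 1.21, 1.497, 1.18 and 1.10, with no overlap and with mutant replicate 2 highest. Its difference was 0.54 (SE 0.127, 1.46-fold, adjusted p = 0.0482 in limma, 0.0251 to 0.156 over the alternatives), and 0.38, 0.59 and 0.77 within the 3 slides. Acvrl1, the type I receptor that works with endoglin, had a difference of 0.45 (adjusted p = 0.396 in limma). Its wild-type replicate 1 and mutant replicate 3 were the lowest arrays, at -3.27 and -2.70, and mutant replicate 3 overlapped with the wild-type arrays.

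Tie1, an endothelial receptor tyrosine kinase that tunes angiopoietin signals, read -0.69, -0.12, -0.58 and -0.17 in the wild-type and 0.19, 0.21, 0.32 and 0.0213 in the mutant arrays. Every mutant array lay above 0 and every wild-type array below it. The difference of 0.57 (SE 0.159) did not pass here (adjusted p = 0.0822 in limma) and passed with the authors' value table (0.04999), the alternatives running from 0.04999 to 0.226. Ramp2, which turns the receptor Calcrl into one for adrenomedullin, read 4.07, 3.82, 3.72 and 3.68 in the wild-type and 4.29, 4.45, 5.04 and 3.998 in the mutant arrays. Its mutant replicate 4 lay below wild-type replicate 1, while mutant replicate 3 stood far above the rest. The difference was 0.62 with an SE of 0.219 (adjusted p = 0.161 in limma).

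Apelin and its receptor, a pair active in sprouting vessels, were both higher in the mutant mean and neither passed. For the ligand Apln the difference was 0.45 (adjusted p = 0.0987 in limma), and the groups did not overlap. A second, dimmer Apln probe gave 0.57, with an adjusted p of 0.0376 in a limma fit over all kept probes. For the receptor Aplnr the difference was 0.37 (adjusted p = 0.290 in limma), and mutant replicate 3 overlapped with wild-type replicate 1.

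Of the 11 adhesion and surface proteins, Emcn rose and 10 did not pass, with a median of 0.41 and 7 genes without overlap. Emcn encodes endomucin, a mucin-like protein on capillary and venous endothelium, and its probe lies on chromosome 3, 137368234 to 137368293 (mm8). The wild-type arrays read 1.903, 2.19, 2.19 and 2.08 for it and the mutant arrays 2.55, 2.99, 2.91 and 2.58. No mutant array overlapped with a wild-type one, and mutant replicates 2 and 3 were highest, as for S1pr1. The difference was 0.67 (SE 0.141, 1.59-fold, adjusted p = 0.0342 in limma, 0.0153 to 0.111 over the alternatives), and 0.72, 0.38 and 1.002 within the 3 slides.

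Clec14a, a lectin-like surface protein of endothelium, had the largest difference of the 31 genes at 0.76. Its wild-type arrays read -3.50, -3.27, -3.13 and -3.67 and its mutant arrays -2.68, -2.82, -2.03 and -3.001. The groups did not overlap, but mutant replicate 3 stood well above the other mutant arrays, the SE was 0.224 and the adjusted p was 0.0964 in limma. The Clec14a difference was 0.38 with normexp background correction, 0.47 with the authors' value table and 0.95 with quantile scaling. With normexp and in the authors' table Emcn had the largest difference instead, at 0.65 and 0.61. The Clec14a probe was dim, with a wild-type mean of -3.39, and a second one was well above background on only 1 array. Mmrn2, a matrix protein known to bind Clec14a and Cd93, was among the 3 smallest differences. It read 3.20, 3.48, 3.47 and 3.51 in the wild-type and 3.39, 3.49, 3.90 and 3.64 in the mutant arrays, with mutant replicates 1 and 2 inside the wild-type range and a difference of 0.19 (adjusted p = 0.575 in limma). Cd93 itself had a difference of 0.37 (adjusted p = 0.132 in limma) without overlap. A second, dimmer Cd93 probe, well above background on all 8 arrays, gave only 0.14, with an adjusted p of 0.874 in a limma fit over all kept probes.

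Icam2, an adhesion protein that leukocyte integrins bind, read 2.54, 2.35, 2.28 and 2.43 in the wild-type and 2.78, 3.06, 3.24 and 2.69 in the mutant arrays, with no overlap. The difference of 0.54 (SE 0.145) did not pass here (adjusted p = 0.0741 in limma) but passed with normexp background correction (0.0426), with quantile scaling (0.0411) and with the authors' value table (0.0185), in a range of 0.0185 to 0.239 over the alternatives. Pecam1, the junction protein most used to stain vessels, had a difference of 0.41 without overlap (adjusted p = 0.128 in limma). Its mutant arrays lay close together, from -0.90 to -0.83, below 0 like the wild-type arrays, which ran from -1.60 to -1.05.

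Plvap, which forms the diaphragms of fenestrated capillaries, and Ptprb, the phosphatase VE-PTP, did not overlap either. Their differences were 0.41 and 0.43 (adjusted p = 0.113 and 0.145 in limma). The junction protein Esam and the guidance receptor Robo4 had differences of 0.32 and 0.20 (adjusted p = 0.226 and 0.474 in limma), and in both mutant replicate 4 overlapped with wild-type arrays.

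Cd34, a sialomucin also found on blood progenitors and mesenchymal cells, had the smallest difference, 0.0691 (SE 0.224, adjusted p = 0.938 in limma). Its wild-type arrays read 4.09, 3.56, 3.44 and 3.36 and its mutant arrays 3.46, 3.56, 4.22 and 3.49. Mutant replicate 3 and wild-type replicate 1 were the highest, and the other mutant arrays lay within the wild-type range. Without mutant replicate 3 the difference was -0.11.

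Among the 6 transcription factors none passed in limma (4 at an unadjusted p under 0.05), the median was 0.42, and 4 had no overlap. Ets1, an ETS factor of endothelium and other cells, read 1.58, 1.76, 1.61 and 1.60 in the wild-type and 2.05, 2.19, 2.39 and 1.95 in the mutant arrays. Its difference of 0.51 (SE 0.123) stood just outside the threshold (adjusted p = 0.0531 in limma). It passed with normexp (0.0394), with quantile scaling (0.0417) and with the authors' table (0.0268), and the range over the alternatives was 0.0268 to 0.173. Lyl1, a basic helix-loop-helix factor shared by endothelium and blood progenitors, behaved alike in these settings. It read 1.99, 1.93, 1.846 and 1.97 on the wild-type arrays, which lay close together, and 2.39, 2.76, 2.69 and 2.20 on the mutant ones. The difference was 0.57 (SE 0.143, adjusted p = 0.0586 in limma), with 0.0323 under normexp, 0.0457 under quantile scaling, 0.0175 in the authors' table and 0.0175 to 0.190 over the alternatives.

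Tal1, the partner of Lmo2 in early blood and vessel cells, and the ETS factor Erg did not overlap between groups. Their differences were 0.40 and 0.44 (adjusted p = 0.0925 and 0.156 in limma). The ETS factor Fli1 and the LIM-domain protein Lmo2 overlapped, with differences of 0.37 and 0.30 and SEs of 0.244 and 0.319 (adjusted p = 0.520 and 0.75 in limma). The 4 Ets1 probes gave differences of 0.51, 0.47, 0.46 and 0.39. The 2 Fli1 probes gave 0.37 and 0.31, and those of Erg 0.44 and, for the dimmer one, 0.99. That dimmer Erg probe was well above background on only 4 arrays, and its wild-type mean of -5.50 lay near the floor. The lowest levels well above background were -5.68 to -4.59 over the arrays, so its 0.99 is uncertain.

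The 5 enzymes, secreted and intracellular proteins had the smallest median, 0.29, and none passed in limma (2 at an unadjusted p under 0.05) or was free of overlap. Vwf, the clotting factor stored by endothelium, had the largest difference of them at 0.55 (adjusted p = 0.196 in limma). For the nitric oxide synthase Nos3, the lumen-forming Rasip1 and the secreted Egfl7 the differences were 0.33, 0.29 and 0.24 (adjusted p = 0.220, 0.357 and 0.370 in limma). Ece1, which cleaves the endothelin precursor, read 4.35, 3.87, 3.804 and 3.70 in the wild-type and 3.99, 3.94, 4.77 and 3.803 in the mutant arrays. As for Cd34, wild-type replicate 1 and mutant replicate 3 were the highest and the other arrays mixed. The difference was 0.20 (SE 0.240, adjusted p = 0.794 in limma), and -0.020 without mutant replicate 3.

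Both markers of lymphatic and sinusoidal vessels differed by more than the median of the 31 genes, and neither passed in limma (both at an unadjusted p under 0.05). Lyve1, a hyaluronan receptor of lymphatic vessels that some macrophages also carry, read -1.46, -1.32, -1.52 and -1.14 in the wild-type and -0.500, -0.59, -0.61 and -1.22 in the mutant arrays. Mutant replicates 1 to 3 lay above every wild-type array, and mutant replicate 4 lay below wild-type replicate 4. The difference was 0.63 (SE 0.180, adjusted p = 0.0900 in limma), and the adjusted p was 0.0202 without mutant replicate 4, in a range of 0.0202 to 0.256 over the alternatives. Stab2, a scavenger receptor of sinusoidal endothelium, had a difference of 0.52 (adjusted p = 0.108 in limma), also with mutant replicate 4 overlapping.

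**Figure D2:**
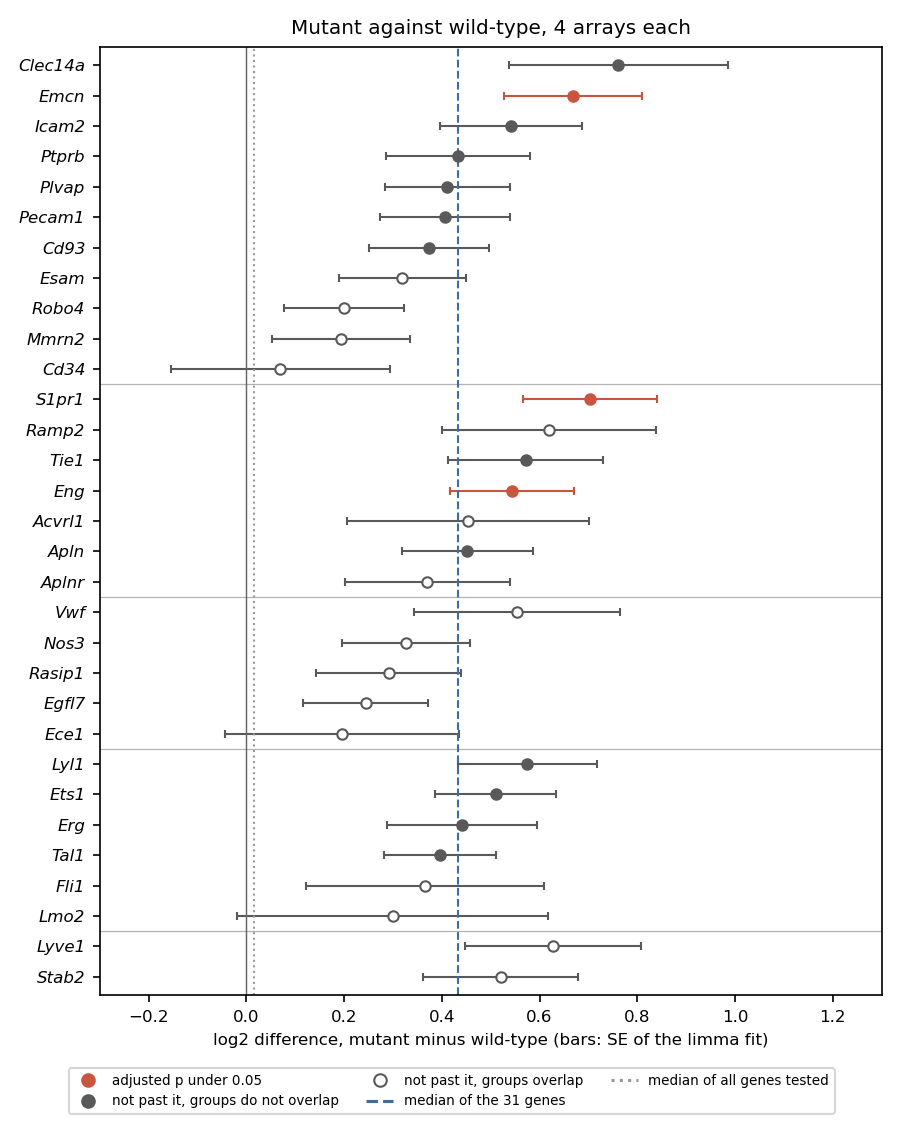
Points are mutant minus wild-type log2 differences of the 31 genes over 4 arrays each, with the SE of the limma fit as bars, grouped by role. All points lie to the right of 0, 3 in red passed an adjusted p of 0.05, filled points mark groups without overlap, and the dashed line is the median of 0.43.

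The 3 calls depended on single arrays. With 1 array left out the log2 differences were 0.61 to 0.77 for S1pr1, 0.59 to 0.74 for Emcn and 0.46 to 0.59 for Eng. S1pr1 kept its call without wild-type replicate 2 (adjusted p = 0.0486 in limma), mutant replicate 3 (0.0437) or mutant replicate 4 (0.0345). It lost it without wild-type replicate 1 (0.0607), 3 (0.0708) or 4 (0.0781) and without mutant replicate 1 (0.0531) or 2 (0.0807). Emcn kept its call without mutant replicate 4 (0.0440) and lost it without wild-type replicate 1 (0.0792), 2 (0.0663), 3 (0.0685) or 4 (0.0971) and without mutant replicate 1 (0.0611), 2 (0.0927) or 3 (0.0715). Eng lost its call whichever array was left out, with adjusted p from 0.0595 without mutant replicate 4 to 0.117 without mutant replicate 1. Leaving out wild-type replicate 1, 3 or 4 or mutant replicate 1 or 2 left 0 of the 31 genes past the threshold in limma (17 to 20 at an unadjusted p under 0.05), where 0.438%, 0.492%, 0.335%, 0.211% and 0.308% of all genes rose. S1pr1 was the 1 gene left without wild-type replicate 2 (0.594% of all genes) or mutant replicate 3 (0.881%), and 4 genes passed without mutant replicate 4 (1.74%): S1pr1, Emcn, Lyl1 and Lyve1. Over these 8 fits the median difference of the 31 genes was 0.38 to 0.47.

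Within each genotype the 31 genes varied between arrays. On wild-type replicates 1 to 4 their mean log2 level stood at 0.84, 0.98, 0.88 and 0.97, and on mutant replicates 1 to 4 at 1.31, 1.43, 1.49 and 1.18, so that mutant replicate 4 lay nearest to the wild-type arrays. Of the 16 genes with overlap, mutant replicate 4 was among the overlapping arrays in 11 and the only mutant one in 6 (Esam, Robo4, Ramp2, Nos3, Lyve1 and Stab2). Mutant replicate 3 was the only one in 4 (Acvrl1, Aplnr, Rasip1 and Lmo2). Wild-type replicate 1 and mutant replicate 3 were also the arrays with the lowest 75th percentile of signal, 372 and 413 against 522 to 641 on the others, and the smallest share of spots well above background, 62.4% and 59.4% against 65.1% to 77.7%. On these 2 arrays together, 6 genes had the highest value of their group (Icam2, Cd34, Robo4, Ramp2, Ece1 and Fli1) and 4 the lowest (Ptprb, Acvrl1, Rasip1 and Lmo2). The part of these array measures in the endothelial differences was not tested. With both arrays left out, which was chosen after seeing the data, the median was 0.37 and 0 of the 31 genes passed in limma (20 at an unadjusted p under 0.05), while 0.0324% of all genes rose.

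The arrays lay on 3 slides, each with both genotypes. The median difference of the 31 genes was 0.50, 0.34 and 0.54 within slides 1, 2 and 3, with 28, 31 and 29 genes above 0. In 26 genes the difference was above 0 within every slide, against 22.0% of all genes. The exceptions were Acvrl1, Rasip1 and Lmo2 on slide 1 (-0.0889, -0.13 and -0.71) and Cd34 and Ece1 on slide 3 (-0.17 and -0.0848). With slide as a fixed block, 6 genes passed in limma (S1pr1, Emcn, Eng, Ets1, Icam2 and Lyl1), against 2.32% of all genes that rose. With slide as a random block Tal1 joined these 6, against 3.13% of all genes.

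Endothelial genes outside the 31 were also mostly higher in the mutant mean, and the lists were not tested against each other. Of 26 on the array 25 were tested, 24 lay above 0 with a median of 0.39, and none passed in limma (10 at an unadjusted p under 0.05, all higher). They include the VE-cadherin gene Cdh5 at 0.46 and the VEGF receptor Kdr at 0.37 (adjusted p = 0.417 and 0.155 in limma). The Notch ligand Dll4, a marker of arterial and sprouting endothelium, was the 1 gene below 0, at -0.26 (adjusted p = 0.362 in limma). These 3 were picked after their values were seen.

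Among 19 tested ligands, receptors and cofactors of the 31 genes, none rose, 1 fell and 18 did not pass. Of the 19, 15 lay above 0 and 4 below, and the median was 0.19. The gene that fell was Sphk1, a kinase that makes sphingosine-1-phosphate, the ligand of S1pr1. Its log2 signal was 2.88, 2.09, 2.03 and 2.34 in the wild-type and 0.57, 0.68, 0.61 and 0.97 in the mutant arrays, without overlap. The difference was -1.63 (SE 0.202, adjusted p = 0.00805 in limma), opposite in sign to that of S1pr1. Epithelial genes fell as well, 17 of 20 with a median of -2.21, as described below. Which cells carried the Sphk1 RNA was not analysed here, and a link between the 2 differences was not tested. The second kinase, Sphk2, differed by 0.12 (adjusted p = 0.639 in limma). For Calcrl, the receptor that Ramp2 serves, and Edn1, the endothelin precursor that Ece1 cleaves, the differences were 0.63 and 0.77 (adjusted p = 0.224 and 0.152 in limma). Adrenomedullin itself, Adm, differed by -0.27 (adjusted p = 0.790 in limma). The endothelin receptors Ednra and Ednrb differed by 0.62 and -0.11 (adjusted p = 0.0849 and 0.816 in limma). These genes and Sphk2 were also picked after their values were seen.

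Markers of other cell types differed too. Of the labelled tissue, 18 of 20 epithelial genes were well above background on all 8 arrays, and so were 17 of 18 mesenchyme genes. Sox9, as the check of genotype, read 3.01, 2.13, 1.82 and 2.19 in the wild-type and -0.61, -1.79, -0.00734 and 0.77 in the mutant arrays (-2.70, adjusted p = 0.0252 in limma). Where its probe lies against the deleted part of the gene was not analysed here. The 7 pancreatic progenitor genes, Sox9 among them, had a median of -2.74, and 6 of them fell. By this value, deletion of Sox9 and a smaller share of epithelial RNA cannot be told apart. Of 20 epithelial genes 17 fell and 3 did not pass, with a median of -2.21, and their mean level ran from 1.24 to 1.63 in the wild-type and from -1.03 to 0.25 in the mutant arrays. Mutant replicate 4, the mutant array nearest to wild-type for the endothelial genes, was also the one with the highest epithelial level. The median of pericyte and smooth muscle genes was 0.40 (3 of 12 rose), near that of the endothelial genes (0.43). Larger medians were found for mesenchyme (0.67, 5 of 18 rose), mesothelium (0.85, 2 of 8) and macrophages (0.63, 5 of 17). Of all genes 1.55% rose. At an unadjusted p under 0.05 in limma 12, 7 and 16 genes of these last 3 lists were higher and 0 lower, against 8.88% of all genes higher. The pericyte genes that rose were Cspg4, Abcc9 and Kcnj8, by 0.69, 0.71 and 0.79 (adjusted p = 0.0332, 0.0346 and 0.0342 in limma). At an unadjusted p under 0.05 in limma, 5 of the 12 pericyte and smooth muscle genes were higher and 1 lower. Anpep, named after its value was seen, was the 1 gene of that list below 0, at -0.77 (adjusted p = 0.0910 in limma). Csf1r, the macrophage growth factor receptor, rose by 0.81 (adjusted p = 0.0213 in limma).

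The mean level of the 17 macrophage genes was 0.40 to 0.67 in the wild-type and 0.91 to 1.35 in the mutant arrays, and that of the 18 mesenchyme genes 1.55 to 1.847 and 2.11 to 2.45. Erythroid and platelet genes, which bear on Tal1, Lmo2, Lyl1 and Vwf, had medians of 0.44 over 13 and 0.40 over 10 genes, and none passed in limma (5 and 2 higher, 0 and 1 lower, at an unadjusted p under 0.05). Of 9 further lymphatic and sinusoidal genes 7 lay above 0, like Lyve1 and Stab2, with a median of 0.61. None of the 9 rose in limma, 1 fell and 8 did not pass (5 higher and 1 lower at an unadjusted p under 0.05). The gene that fell was Prox1, also a factor of pancreatic epithelium, by 2.05 (adjusted p = 0.00805 in limma). Liver and plasma protein genes had a median of 1.76, the largest of these cell type lists, with 3 of 8 higher, 1 lower and 4 not past the threshold. Their mean level ran from -0.58 to 0.13 in the wild-type and from 0.27 to 2.28 in the mutant arrays. Alb, Afp and Itih2 rose by 3.48, 2.23 and 2.60 (adjusted p = 0.0233, 0.00805 and 0.00413 in limma), and Ambp fell by 1.59 (adjusted p = 0.00885 in limma). The part of the other cell types in the endothelial differences was not tested.

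**Figure D3:**
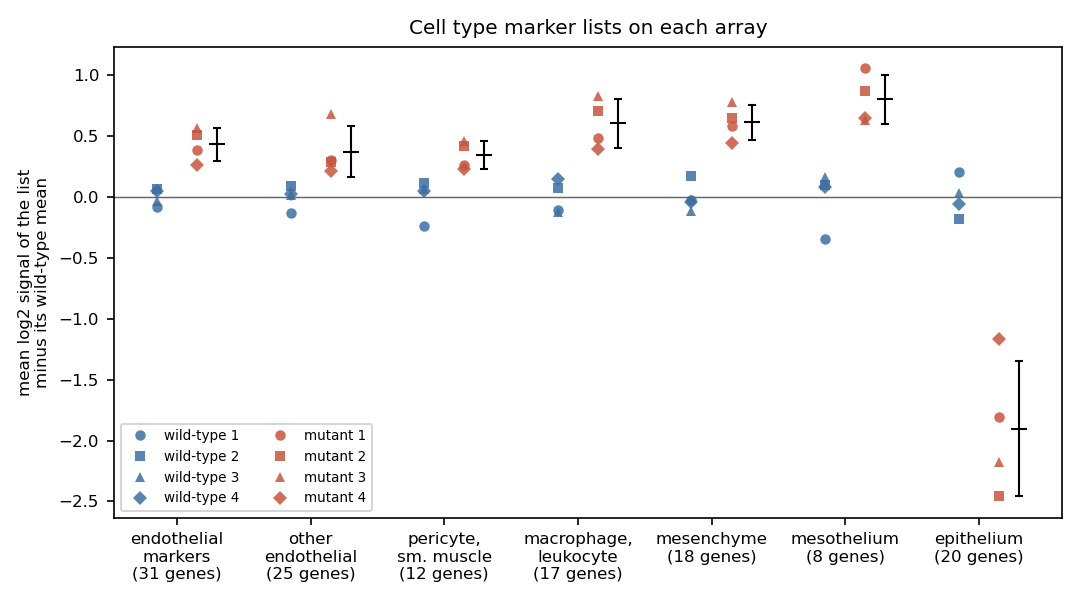
Each point is the mean log2 signal of 1 list of marker genes on 1 array, minus the mean of that list over the wild-type arrays, with wild-type arrays in blue and mutant arrays in red. Black marks give the mutant mean with its SD over 4 arrays, which is 0.43 ± 0.14 for the 31 endothelial genes and -1.90 ± 0.56 for the epithelial genes.

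Y-linked genes ran in part with genotype, since the mean level of 3 of them was -6.44, -5.19, -1.13 and -6.58 in the wild-type and -0.18, -1.14, -1.09 and -1.88 in the mutant arrays. On slide 2, with 1 wild-type and 2 mutant arrays, that level differed by 0.11, and the median difference of the endothelial genes was 0.34, the smallest of the 3 slides, with all 31 above 0. The part of the Y-linked difference, and so of embryo sex, in the endothelial differences was not tested.

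**Figure D4:**
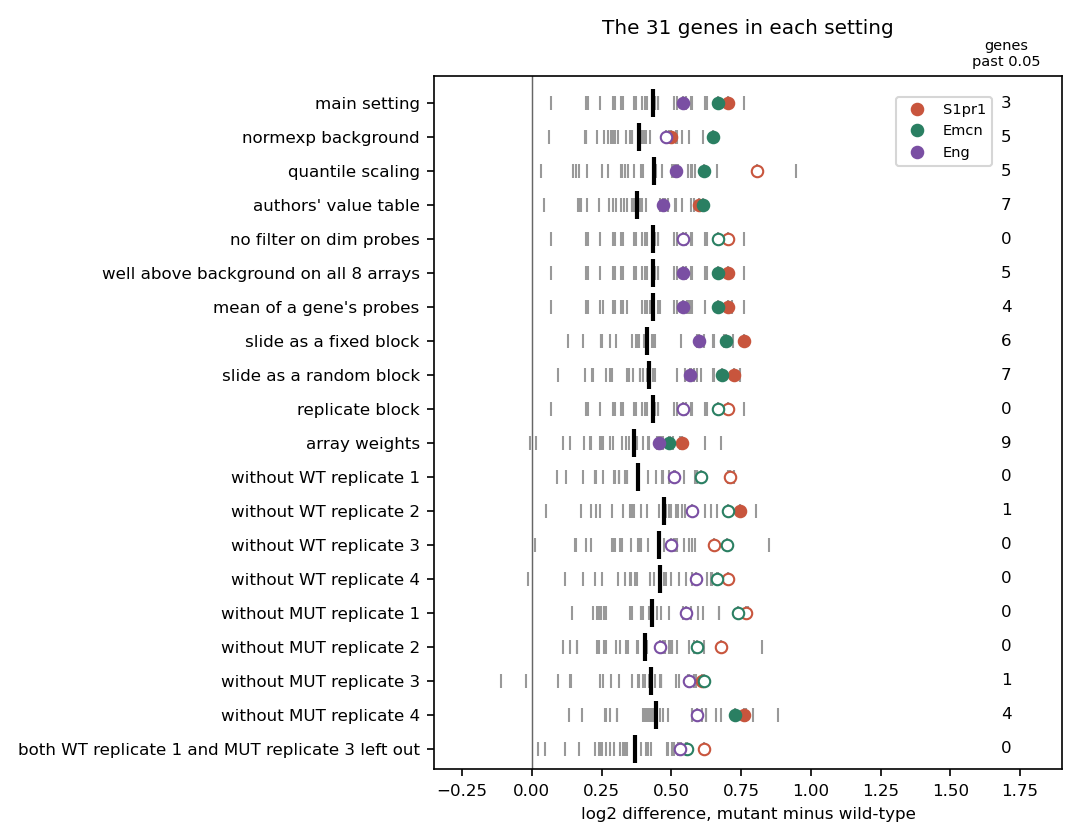
Grey ticks are the mutant minus wild-type log2 differences of the 31 genes under each processing setting, the black bar is their median, and circles mark S1pr1, Emcn and Eng, filled where the adjusted p was under 0.05. The column on the right counts genes of the 31 past that threshold, from 0 to 9, while the medians stay between 0.37 and 0.47.

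Under the other background correction, the other scaling and the authors' value table all 31 genes stayed above 0. With normexp 5 genes passed in limma (Emcn, Ets1, Icam2, Lyl1 and S1pr1), against 1.85% of all genes that rose. Eng missed the threshold there (adjusted p = 0.0570 in limma, 0.0251 to 0.156 over the alternatives). With quantile scaling 5 passed (Emcn, Eng, Ets1, Icam2 and Lyl1), against 1.72%, and S1pr1 missed it (adjusted p = 0.0574 in limma, 0.0107 to 0.127 over the alternatives). In the authors' value table these 6 and Tie1 passed, against 3.01%. There 557 of the 1311 genes past the threshold were higher in the mutant, against 287 of 994 here.

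Which genes were tested and how probes were joined also moved the count. With probes well above background on all 8 arrays 5 of the 31 genes passed in limma (Emcn, Eng, Ets1, Lyl1 and S1pr1), against 2.64% of all genes that rose. With the mean of the probes of a gene Apln joined the 3 genes named above, against 1.25%. With array weights 9 genes passed (Apln, Clec14a, Emcn, Eng, Ets1, Icam2, Lyl1, S1pr1 and Tal1), against 4.63%. With no filter on dim probes 0 passed (19 at an unadjusted p under 0.05), against 0.151% of all genes that rose.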

How the data were processed

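RNA from 4 wild-type and 4 mutant pools was hybridised to 8 single-colour Agilent arrays. Agilent Feature Extraction 9.5.3.1 made the deposited scanner files, per the file headers. Their processed signal is a linear intensity from which the authors' software took background and spatial trends, with no scaling between arrays. Mean signal and local background were deposited as raw intensity, and the deposited quality columns are flags, that is, values other than measurements. The authors' value table holds intensity values of 33067 features with a median of 227 on every array. The submitters' processing notes name limma, and its background method and filter are not given in the sources used here. Its scale is linear, it is not centred, and its values are not ratios.

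From these, log2 processed signal minus the 75th percentile of each array was computed here without the 1639 control spots. Of 41174 probes, 27389 well above background on at least 4 arrays were kept, and the brightest kept probe stood for each of 18506 genes. For 9 genes a value was missing on some array. RefSeq accessions named 23374 probes, a second probe of equal name 4500, and the file itself 13300. Positions of probes are on mm8, as the scanner files give them, and exon or UTR was not analysed here. Groups were compared with lmFit and eBayes (limma 3.58.1, R 4.3.3, with version 1.17.8 of data.table), two-sided, and p-values were adjusted over all genes by Benjamini-Hochberg. Tables and figures used Python 3.11.15, pandas 2.3.3, numpy 2.4.6 and matplotlib 3.10.9. The number of arrays limits the precision. Tested on data simulated for this comparison over 18497 genes, the fit recovered 6% of log2 changes of 0.5, 56% of 1, 86% of 2 and 94% of 3, with 9 false calls. Only 50 genes were changed at each size, fewer in all than the 994 past the threshold in the data, which makes the Benjamini-Hochberg cut stricter. The changed genes were drawn from all genes, whose median SE was 0.180, against 0.145 for the 31 endothelial genes. These shares therefore do not give the recovery for the endothelial genes.

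Alternatives were normexp background (offset 50), quantile scaling, the authors' values, other filters and probe rules, slide as a block, a replicate block, array weights and leaving out arrays. The endothelial genes and all other lists were chosen with earlier results of these data known, so counts over them are descriptions. Every endothelial gene is named. Values on every array are given for those past the threshold here or in the normexp, quantile or authors' value setting and for the 5 largest and 3 smallest differences. Genes of other lists were to be named where past the threshold, at most 6 per list by adjusted p, and only those a result turns on are printed, with exceptions stated. Sox9 is given as the check of genotype, with the limit stated beside its values.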

Additional observations from a re-analysis of the deposited data

Results flagged for a closer look

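For 7 of the 62 sets of 4 arrays examined (31 endothelial genes in each genotype), 1 array stood apart from the other 3 by more than Dixon's 95% critical value, which chance gives in about 1 in 20 sets. Values are log2 signals relative to the 75th percentile of the array.

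Mutant replicate 3 stood high for Cd34, at 4.22 against 3.46 to 3.56 on the other mutant arrays, and for Apln, at 0.52 against 0.29 to 0.33. Wild-type replicate 1 stood low for Lmo2, at -1.54 against -0.74 to -0.65, and for Mmrn2, at 3.20 against 3.47 to 3.51. Wild-type replicate 2 stood high for Ets1, at 1.76 against 1.58 to 1.61, and wild-type replicate 4 for Tal1, at 0.13 against -0.16 to -0.11. Mutant replicate 4 stood low for Lyve1, at -1.22 against -0.61 to -0.50.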

How the results depend on the processing

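The median difference of the 31 endothelial genes was 0.37 to 0.47 under all 19 alternatives. The number past the threshold in limma was 3, where 1.55% of all genes rose. It was 5 with normexp (1.85% of all genes rose), 5 with quantile scaling (1.72%) and 7 with the authors' value table (3.01%). With probes well above background on all 8 arrays it was 5 (2.64%), and with slide as a fixed block 6 (2.32%). Array weights gave 9 (4.63%) and slide as a random block (correlation 0.194) gave 7 (3.13%). The share of all genes higher at an unadjusted p under 0.05 was counted for the first setting only (8.88%). Without a filter on dim probes the number was 0 (19 at an unadjusted p under 0.05), where more genes were tested and 0.151% of them rose. With 1 array left out it was 0 to 4, where 0.211% to 1.74% of all genes rose. Of all genes 994 passed in either direction, 2020 with array weights, 1536 with slide as a random block, 419 with no filter and 395 to 971 with 1 array left out. Those higher in the mutant numbered 287, 856, 579, 42 and 39 to 322 in the same order. Leaving out both wild-type replicate 1 and mutant replicate 3, chosen after seeing the data, left 0 endothelial genes and 65 of all genes, of which 6 were higher in the mutant.

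With the replicate number as a block, 0 endothelial genes (18 at an unadjusted p under 0.05) and 340 of all genes passed, of which 27 were higher in the mutant. The numbers did not pair the arrays: same-numbered deviations correlated at -0.35 to 0.088, and no wild-type array correlated best with the mutant array of its own number.

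Of the 25 other endothelial genes 0 passed, and 3 did with the authors' table, 1 with probes well above background on all 8 arrays, 4 with slide as a fixed block, 4 with array weights and 3 with slide as a random block. Of the 19 partner genes 1 passed, and 2 with normexp, the authors' table, slide as a fixed or random block, the replicate block and array weights. Of 589 differences of single endothelial genes under the alternatives, 585 stayed above 0. The 4 others were Cd34 with array weights (-0.0053), without wild-type replicate 4 (-0.015) and without mutant replicate 3 (-0.11), and Ece1 without mutant replicate 3 (-0.020). With 1 array left out, Cd34 ran from -0.11 to 0.23 and Ece1 from -0.020 to 0.34. Apart from the smaller or larger sets of genes or arrays, the cause of these changes was not tested. With 4 arrays per genotype, 28 of the 31 differences did not pass in limma under the processing used here.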
